A study of Mus musculus with 2 samples.

Results

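The cells described here form cluster 14 of the clustering deposited by the authors for single cells of mouse thymus, a clustering made in Seurat at a resolution setting of 1.5 that divided the cells into 19 clusters. Membership was read from the deposited cluster number, and the library of each cell from the WT or KO in its name. The cluster held 153 of 13683 cells, 54 of the 6115 WT cells and 99 of the 7568 KO cells. The same 153 cells also formed 1 cluster at the deposited resolutions of 1.8 and 2. It is called the Myl10 cluster here, after the marker gene found in the most of its cells.

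Thymocytes came from Cdc42 f/f mice (WT) and from their Cdc42 f/f CD4Cre littermates (KO), all 6 weeks of age. Cells of 5 mice were pooled for each genotype and made into 1 library, so that there was 1 library per condition and no replicate, and no test between the genotypes was possible. Both groups carried the floxed Cdc42 allele, in which loxP sites flank exon 2, and only the KO mice carried the Cre transgene driven by Cd4 regulatory sequence, which becomes active as thymocytes begin to express CD4. The deposited cell names carry Cdc45 where the labels have Cdc42. All intervals below are exact 95% intervals and cover counting error only. They leave out the spread between mice and, for levels and ratios, the spread between cells.

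Thymocytes first pass through CD4-CD8- double-negative (DN) stages, in which Notch signals from the epithelium commit them to the T lineage and the recombinase rearranges the Tcrb, Tcrg and Tcrd loci. At the DN3 stage they carry the IL-2 receptor alpha chain (Il2ra, CD25) and pair a rearranged TCRβ chain with pre-Tα, the product of Ptcra, in the pre-TCR. Cells that pass this checkpoint lose CD25, divide and become CD4+CD8+ double-positive (DP), whereas cells with a productive γδ receptor leave toward the γδ lineage.

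Counts are of unique molecular identifiers (UMIs), the tags that mark single captured mRNA molecules, and levels are CPM, the UMIs of a gene summed over the cells of a cluster and library and scaled to a common total of 1000000. The Myl10 cluster held 530118 WT and 990650 KO UMIs. Its cells had nearly the same depth in both libraries, with a median of 9497 UMIs and 3090 genes per WT cell and 9447 UMIs and 3089 genes per KO cell, whereas the medians over all cells were 3192 and 3401 UMIs. Mitochondrial UMIs were a median 4.38% and 4.97% of a cell, and ribosomal protein UMIs 25.8% and 24.6%. The libraries shared 17 cell barcodes, none of them in this cluster.

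Cdc42, the GTPase gene targeted in the KO, was present at 272 CPM (229 to 320) in WT and 265 CPM (234 to 300) in KO cells of the cluster, from 144 and 263 UMIs. The log2 ratio of KO over WT was -0.04 (-0.33 to 0.27), so no difference was detectable at this depth. The cluster ranked 18 of 19 for Cdc42 in both libraries. In clusters 10 to 12, the proliferating thymocytes used for comparison, Cdc42 was at 409 CPM in WT and 341 CPM in KO. The libraries count the 3′ ends of transcripts, which lie outside the floxed exon 2, and the UMIs therefore do not check the deletion itself.

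All 5 markers were highest in the Myl10 cluster among the 19 clusters, in both libraries. Because the clusters were made from these genes, this is a description and no test. Myl10, a myosin regulatory light chain gene (chr5:136693146-136701094, + strand, GRCm38), was at 1628 CPM (1521 to 1740) in WT and 1211 CPM (1144 to 1282) in KO, against 122 CPM in WT cluster 11 and 190 CPM in KO cluster 17, the next highest. Il2ra (chr2:11642807-11693193, +) was at 511 CPM (452 to 576) and 758 CPM (705 to 814), with next highest levels of 58.7 and 77.6 CPM. By these levels both genes stood more than 5-fold above every other cluster. The Myl10 level of KO cluster 17 is uncertain, from 8 UMIs in 26 cells (81.9 to 374 CPM).

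Hes1, a repressor that Notch induces directly (chr16:30064384-30067796, +), was at 228 CPM (189 to 273) in WT and 354 CPM (318 to 393) in KO. Notch1, the receptor itself (chr2:26457903-26516663, -), was at 466 CPM (410 to 528) and 547 CPM (502 to 595). Trgc2, a constant segment of the TCRγ chain (chr13:19304649-19307551, -), was at 753 CPM (681 to 830) and 720 CPM (668 to 775). The next highest levels were 31.8 and 47.4 CPM for Hes1, 106 and 134 CPM for Notch1, and 83.3 and 285 CPM for Trgc2. Those of Hes1 and Trgc2 in KO came from cluster 17 and rest on 2 and 12 UMIs. Within the Myl10 cluster, the KO level was the higher for Hes1 and Il2ra and the WT level for Myl10, with intervals apart. The intervals overlapped for Notch1 and Trgc2.

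**Figure D1:**
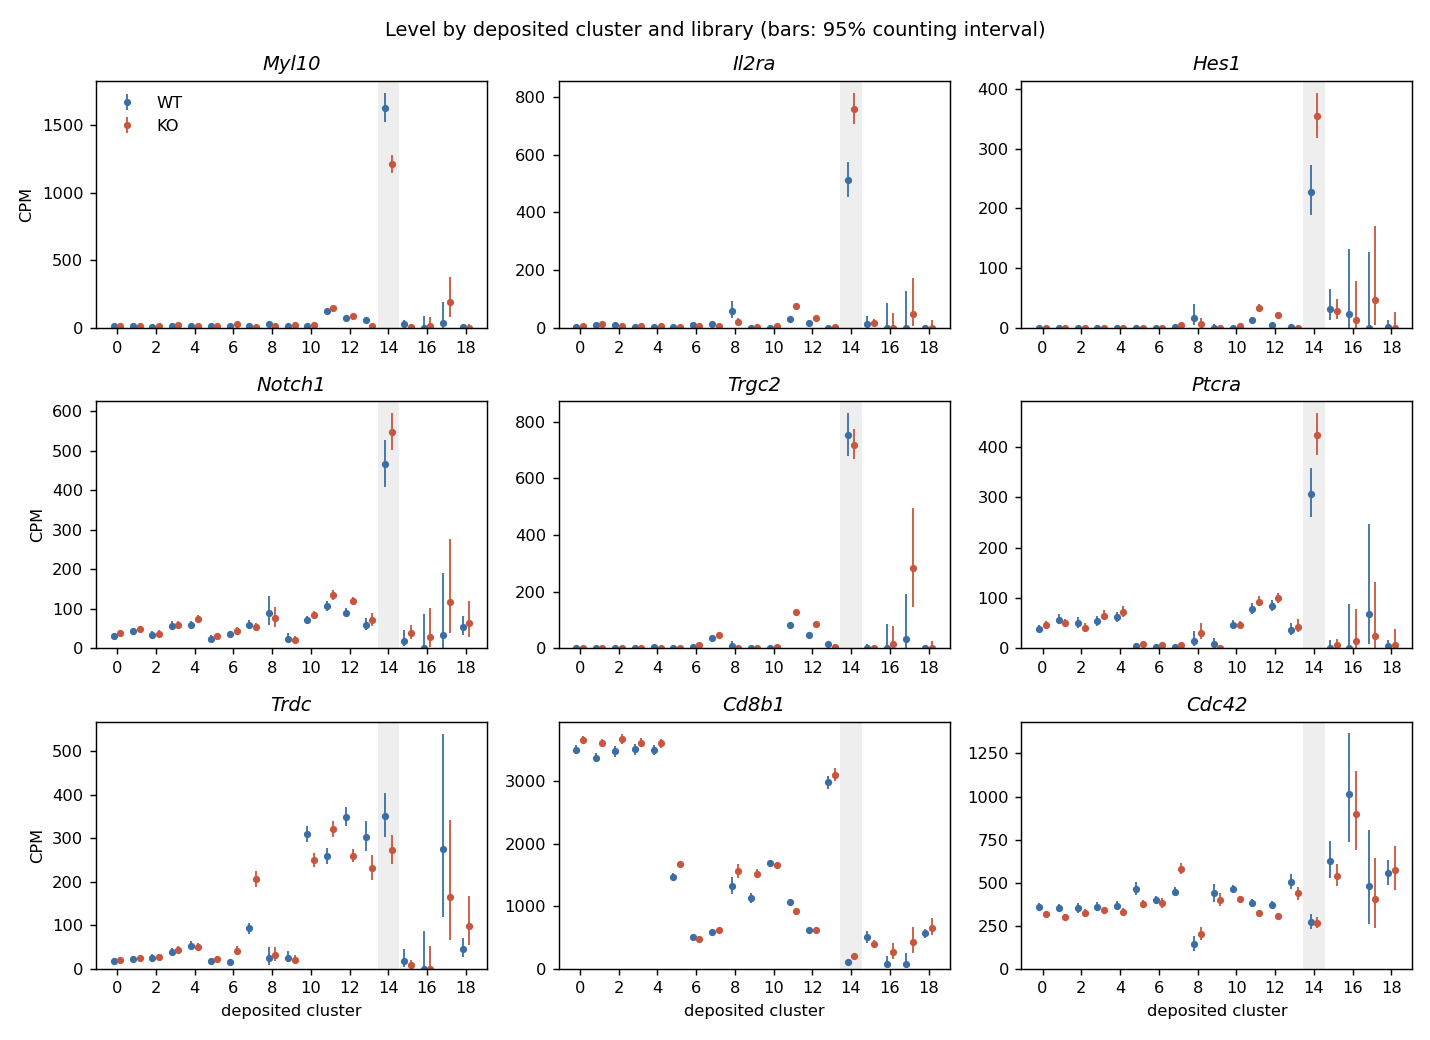
Level in CPM (y axis, linear) of 9 genes in each of the 19 deposited clusters (x axis) for the WT and KO libraries, with exact 95% Poisson intervals as bars and the Myl10 cluster shaded. The 5 markers and Ptcra peak in the shaded cluster, Trdc is at similar levels in clusters 10 to 13, and Cd8b1 and Cdc42 are near their lowest, at 109 and 200 CPM for Cd8b1.

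Windows of 250 bases before the RefSeq transcription start of Myl10 and of Ptcra on GRCm38.p6 are shown. Myl10 is a marker of the cluster and Ptcra a gene of the DN3 stage. Notch acts through RBPJ, a protein known to bind the core letters TGGGAA. The windows shown were picked from those with a match, so neither could lack one. Capitals mark TGGGAA on the strand shown or its reverse complement TTCCCA. The Ptcra window is chr17:46763713-46763962 (- strand), with matches that begin 84 and 32 bases before the start, and the Myl10 window is chr5:136692896-136693145 (+ strand), with 1 match 70 bases before the start.
Ptcra: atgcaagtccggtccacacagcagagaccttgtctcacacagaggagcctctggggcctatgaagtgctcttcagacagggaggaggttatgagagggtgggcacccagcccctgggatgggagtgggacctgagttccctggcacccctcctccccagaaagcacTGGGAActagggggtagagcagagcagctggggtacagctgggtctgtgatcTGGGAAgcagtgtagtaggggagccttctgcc
Myl10: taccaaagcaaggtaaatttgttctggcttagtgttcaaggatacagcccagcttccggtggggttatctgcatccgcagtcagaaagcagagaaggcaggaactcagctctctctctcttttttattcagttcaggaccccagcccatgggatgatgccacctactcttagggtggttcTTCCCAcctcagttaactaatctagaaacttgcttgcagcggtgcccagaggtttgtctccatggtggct
On either strand, 21.6% of 32851 RefSeq windows of the same 250 bases held at least 1 match and 2.77% held 2 or more. Of the 3 Myl10 windows in RefSeq, 2 held a match. The windows of Il2ra, Notch1, Notch3, Dtx1 and Nrarp held none, and that of Hes5 held 2. Hes1, Trgc2, Heyl and Hey1 had no window in the reference and were not searched. A match is a run of letters and not a known site of binding.

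Single cells carried the markers together. All 5 markers had at least 1 UMI in 31 of 54 WT and 67 of 99 KO cells, 4 of them in 15 and 27 cells, and a single KO cell had at most 1. Myl10 was found in 54 of 54 and 98 of 99 cells, Notch1 in 51 and 93, Trgc2 in 49 and 92, Il2ra in 48 and 96, and Hes1 in 34 and 77. In cluster 15, whose leading gene Cd74 belongs to antigen-presenting cells, Myl10 was found in 3.17% and 1.15% of cells and Il2ra in 4.76% and 9.20%, at medians of 1202 and 4284 UMIs per cell. After each cell was thinned to 3000 UMIs, which left out 1 WT cell, Il2ra remained in 33 of 53 WT and 79 of 99 KO cells and Hes1 in 22 and 56.

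Within the cluster the cells were spread widely for every marker. Myl10 ran from 2.17 to 32.2 UMIs per 10000 UMIs of a WT cell, with a median of 17.4, and from 0 to 31.2 in KO cells, with a median of 12.4. Il2ra had medians of 3.20 and 6.00 and reached 23.2 and 35.0, and Hes1 had medians of 1.11 and 2.82 and reached 8.77 and 15.5. The WT and KO cells overlapped over almost the whole range of each gene.

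**Figure D2:**
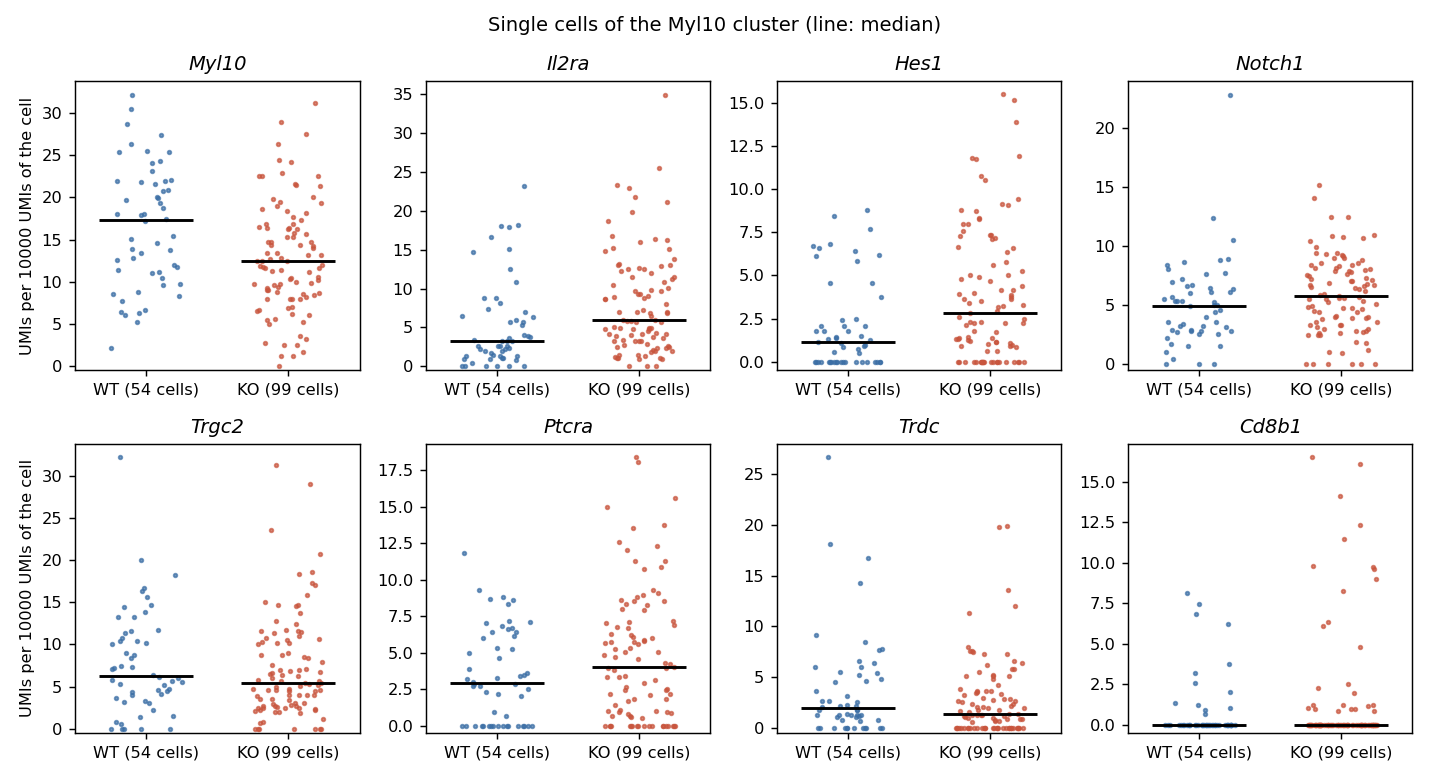
UMIs per 10000 UMIs of the cell (y axis, linear) for 8 genes in the 54 WT and 99 KO cells of the Myl10 cluster, 1 point per cell with the median as a line. Marker levels spread from near 0 to 32.2 for Myl10 in WT cells, the libraries overlap, and the median of Cd8b1 is 0 in both.

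Coreceptor genes, which DN cells lack, were lower than in clusters 10 to 12. Cd4, Cd8a and Cd8b1 all had 0 UMIs in 37 of 54 WT and 67 of 99 KO cells. Cd4 was found in 5 and 13 cells and was at 17 and 27.3 CPM, compared with 96.2 and 85.6 CPM in clusters 10 to 12. Cd8b1 was found in 24.1% and 26.3% of cells, beside 22.2% and 25.3% of the shallower cells of cluster 15, which should lack it. Its UMIs were uneven over cells, with a median of 0 in both libraries and up to 8.16 UMIs per 10000 in a WT cell and 16.5 in a KO cell. It was at 109 and 200 CPM, against 1138 and 1044 CPM in clusters 10 to 12, and the KO over WT log2 ratio was 0.86 (0.44 to 1.32).

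To place the cluster, each gene was compared with clusters 10 to 12 combined (547 WT and 605 KO cells, with 8987150 and 11608517 UMIs), within each library. A gene was counted as higher or lower when its summed CPM was at least 2-fold apart in the same direction in both libraries. Of 10626 genes with at least 50 UMIs in all, 1506 (14.2%) were higher and 939 (8.84%) were lower, and the median log2 ratio was 0.20 in WT and 0.18 in KO. Under TMM scaling, which trims the most different genes before it sets the scale, the split was 879 higher and 1416 lower with medians of -0.17 and -0.14. The medians of the gene lists below stand beside these shifts. Cells of clusters 10 to 12 were also larger in content, with medians of 13585 and 16722 UMIs, and had lower mitochondrial medians of 2.36% and 2.51%. The part of these differences in the ratios was not tested.

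Genes of the DN3 and pre-TCR stage were mixed, with 10 of the 22 in the list higher, 3 lower and 9 neither, and median log2 ratios of 0.99 and 1.02. The list holds 4 of the markers, and of the 18 other genes 6 were higher and 3 lower, with medians of 0.86 and 0.98. Ptcra, on chromosome 17, was at 307 CPM (262 to 358) in WT and 425 CPM (385 to 468) in KO, compared with 69.5 and 81.1 CPM in clusters 10 to 12. Erg, an ETS factor of early T cells, was 4.08 and 4.33 above clusters 10 to 12 on the log2 scale from only 12 and 21 UMIs. Cd3g, a signalling chain of the receptor complex, was at 3048 and 2837 CPM, the highest of any cluster in both libraries, and Cd3e at 1051 and 1125 CPM. Dntt, the template-independent polymerase that adds junctional nucleotides, was at 1979 and 1725 CPM, with log2 ratios of 0.96 and 0.87 that stayed under 2-fold.

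The recombinase gene Rag1 was at 656 and 605 CPM, far below the 3310 and 3063 CPM of cluster 0, its highest level. It was nevertheless above the comparison clusters 10, 11 and 12, though not counted as higher. Those were at 461, 394 and 139 CPM in WT and at 458, 333 and 139 CPM in KO. Trbc2, a TCRβ constant segment, was lower than in clusters 10 to 12, at 2352 against 5488 CPM in WT and 2390 against 5346 CPM in KO. Nrarp, a feedback inhibitor of Notch, had 0 and 1 UMI. The lower genes thus included a TCRβ segment and 1 Notch target.

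Of 34 genes listed for γδ T cells, 32 were in the matrix and 19 could be compared, of which 11 were higher and 4 lower, with median log2 ratios of 2.36 and 1.79. Of the 11 higher genes, 6 were segments of the TCRγ locus on chromosome 13. Trgc1 was at 677 and 592 CPM against 53.2 and 73.4 in clusters 10 to 12, Trgc4 at 451 and 382 CPM against 30.9 and 43.5, and the variable segment Trgv2 at 206 and 279 CPM against 11.6 and 21.6. Of the 50-base windows of their transcripts, 34.2% in Trgc1 and 25.4% in Trgc2 are shared with another TCRγ constant gene and none in Trgc4. The counts of Trgc1 and Trgc2 are therefore uncertain, whereas Trgc4 was high on its own sequence.

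TCRδ transcripts were not set apart from clusters 10 to 12. Trdc, the δ constant segment on chromosome 14, was at 351 CPM (302 to 405) and 273 CPM (241 to 307), against 306 and 276 CPM in clusters 10 to 12, with log2 ratios of 0.20 and -0.02, both of which are below 0 under TMM scaling. Among all 19 clusters the Myl10 cluster ranked 1 in WT and 2 in KO for Trdc. Clusters 0 to 9 reached at most 92.8 CPM in WT and 206 CPM in KO, both in cluster 7. Trdc was found in 42 of 54 and 67 of 99 cells of the Myl10 cluster, and 27 and 52 cells held Ptcra beside it. Trdv1 and Trdv2-2 had 0 UMIs in WT and 1 each in KO. Among regulators of the γδ lineage, Sox13 was higher, though from 6 and 9 UMIs, at 11.3 and 9.08 CPM against 2.34 and 1.81, Maf had 0 and 14 UMIs and was found in 11 KO cells, and Id3, which strong receptor signals induce, was lower at 45.3 and 65.6 CPM against 160 and 137. Il23r and Ccr6, receptors of IL-17-producing γδ cells, had 0 UMIs, which allows up to 5.66 CPM in WT and 3.03 CPM in KO. Sox4, an HMG-box factor of early thymocytes, was higher at 798 and 854 CPM against 331 and 325. The membrane protein genes Tmem176a and Tmem176b were also higher, the former at 92.4 and 78.7 CPM against 8.90 and 8.36. Besides the 6 TCRγ segments, the higher genes of the list were thus Sox13, Sox4, Tmem176a, Tmem176b and 5830411N06Rik. Without the marker Trgc2, 10 of 18 were higher and 4 lower.

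Genes of earlier progenitors were present at low levels. Of 19 listed, 17 were in the matrix and 7 could be compared, with 4 higher and 0 lower. Kit, the stem cell factor receptor, was at 22.6 and 37.3 CPM, Bcl11a at 50.9 and 22.2 CPM, and Cd93 at 34 and 33.3 CPM. Of the 27 Bcl11a UMIs in WT, 8 lay in 1 cell, which is described below. Cpa3, a protease of mast cells that early thymic progenitors also express, was at 77.3 and 138 CPM, from 41 and 137 UMIs of which 29 in KO lay in 1 cell. At least 1 of Kit, Cpa3 and Bcl11a was found in 25 of 54 and 47 of 99 cells, and 17 and 34 of these cells also held Ptcra. Flt3 and Meis1, which mark the most immature progenitors, had 0 UMIs, and Cd44 had 1 and 2.

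A single WT cell stood apart. It held 20636 UMIs and 4832 genes, all 24 UMIs of Mpo, all 57 of Hbb-bt and all 14 of Tyrobp in the WT cells of the cluster, and 7 of 8 of Cd34. Of other genes in the progenitor list it held 7 of 8 WT UMIs of Lmo2, all 7 of Hhex, 4 of 5 of Spi1 and 8 of 27 of Bcl11a. It held 0 of 1616 UMIs of Cd3g and 0 of 163 of Ptcra, but 26 of Myl10. Without this cell the 5 markers kept their direction against clusters 10 to 12. The progenitor list was not counted again without it.

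Of 39 Notch pathway genes listed, 37 were in the matrix and 28 could be compared, with 13 higher, 14 neither and only Nrarp lower, and median log2 ratios of 0.97 and 0.98. Without the 3 markers in the list, 10 of 25 were higher and 1 lower, with medians of 0.71 and 0.68. Besides Notch1, the receptor gene Notch3 was at 100 and 154 CPM against 5.23 and 9.48, and Dtx1, an E3 ligase of the pathway, at 52.8 and 83.8 CPM against 3.89 and 6.81. Lfng, which glycosylates Notch receptors and favours Delta-like ligands, was at 35.8 and 31.3 CPM against 1.45 and 2.33, and the coactivator gene Maml3 at 75.5 and 51.5 CPM against 7.12 and 7.41. The DNA-binding partner Rbpj was under 2-fold apart, at 52.8 and 66.6 CPM against 36.4 and 44.2, as was the protease gene Adam10. Myc, a target in DN3 cells, was at 168 and 186 CPM against 50.5 and 61.7. The higher group thus held receptors, modifiers and targets together with the coactivators Maml1, Maml2 and Maml3 and the secretase subunit gene Psen2.

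Nearly all genes of the cell cycle were lower in the Myl10 cluster than in the comparison clusters. Those clusters are proliferating thymocytes, so this direction follows largely from the choice of comparison and is a description, no test. Of 39 S phase genes, 36 were lower and 0 higher, with median log2 ratios of -3.28 and -2.95, and of 48 genes of G2 and mitosis, 45 were lower and 0 higher, with medians of -5.27 and -5.20. With sums of 0 set to the limit of 3 UMIs, the latter medians were -4.31 and -4.71. Mki67, a marker of dividing cells, was at 9.43 and 6.06 CPM against 1035 and 1047, and it was found in 1 WT and 4 KO cells. Top2a was at 45.3 and 22.2 CPM against 1825 and 1789. Among all 19 clusters, from the highest down, the Myl10 cluster ranked 9 in WT and 11 in KO for Top2a. For Mki67 it ranked 12 in WT and 17 in KO, so it was not the lowest cluster for either gene. Mki67 and Top2a were found together in 1 cell of each library.

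The 15 genes farthest below clusters 10 to 12 were nearly all of this kind. Pclaf, a partner of PCNA in replication, headed them with 2 and 3 UMIs against 1454 and 1311 CPM, log2 ratios of -8.27 (-11.64 to -6.74) and -8.54 (-11.04 to -7.21). H2ac10 had 0 UMIs in both libraries, at least 36.0-fold lower in WT and 56.1-fold lower in KO, although it and H3c3 belong to families of near-identical histone genes and their counts are uncertain. Mxd3, Bub1 and Nuf2 also had 0 UMIs in both libraries, at least 29.2-, 16.3- and 14-fold lower in WT. Ccna2, Spc25, Esco2 and Pbk had 0 UMIs in WT and 1 in KO. Birc5, Cdk1, Ube2c and Cdca3 had 1 to 8 UMIs.

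Regulators of G1 did not move as 1 group, with 5 of 14 higher and 6 lower. Ccnd2, a D-type cyclin, was at 468 and 461 CPM against 22.9 and 44.5, Cdk6, its kinase partner, at 730 and 781 CPM against 113 and 147, and the inhibitor Cdkn1a at 83.0 and 80.8 CPM against 5.67 and 4.65. Ccnd3, the D-type cyclin known for the expansion after the pre-TCR checkpoint, was lower at 200 and 232 CPM against 1054 and 956. Cdk6 was highest in this cluster of all 19 in both libraries. The cyclin D genes thus had opposite directions in the same cells.

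**Figure D3:**
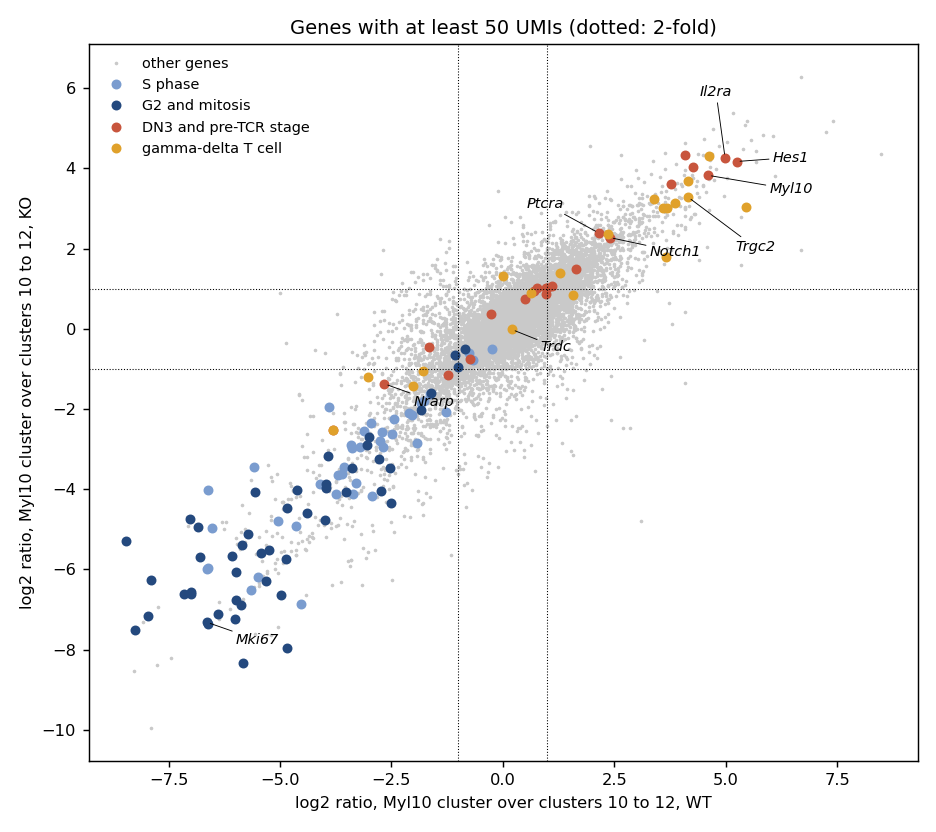
Log2 ratio of the summed CPM of the Myl10 cluster over clusters 10 to 12 in WT (x axis) and in KO (y axis) for the 10626 genes with at least 50 UMIs, after 0.5 was added to each sum, with genes of 4 lists coloured. Most S phase and mitotic genes lie at the lower left, and Trdc near 0. Of the DN3 list, 10 of 22 genes are past 2-fold at the upper right and 3 at the lower left. Of the γδ list, 11 of 19 are at the upper right and 4 at the lower left.

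At the other end, the 15 genes farthest above clusters 10 to 12 included Il2ra, Hes1, Notch3 and Cdkn1a. H19, an imprinted long noncoding RNA, was at 160 and 114 CPM against 0.890 and 3.10, and was found in 19 and 30 cells. Gm4632 was at 804 and 1022 CPM against 14 and 36.0, in 50 and 92 cells. Tshz2, a zinc finger factor, was at 90.5 and 84.8 CPM against 2.00 and 2.33, Pld4, a nuclease, at 71.7 and 112 CPM against 1.67 and 5, and Bst1, a cyclase related to CD38, at 64.1 and 102 CPM against 2.45 and 4.91. The others were Gm12503, Gm5111, Gm17590, Gm37881, AA467197 and Khdc1a, which is described with the KO below. H19 and Gm17590 were thus in a minority of cells and Gm4632 in nearly all.

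Transcription factors of the T lineage varied. Of 28 compared, 9 were higher and 3 lower, but 5 and 6 under TMM scaling. Runx1, which acts with Notch in early T cells, was at 413 and 487 CPM against 100 and 107, Myb at 523 and 587 CPM against 230 and 246. The lower factors included Id3 and Ikzf3, and the higher ones included Ikzf2, an Ikaros family member, at 198 and 233 CPM against 91.1 and 101. Tcf7, Gata3, Bcl11b and Lef1, the core of T commitment, were under 2-fold apart in at least 1 library.

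Genes of IL-7 and cytokine signalling were higher in 8 of the 15 compared and lower in 1, or 5 and 1 under TMM scaling. Bcl2, a survival factor, was at 209 and 290 CPM against 34.8 and 34.1. Il7r, the IL-7 receptor, was at 104 and 189 CPM against 16.2 and 20.7, and Socs3, an inhibitor of cytokine signals, at 56.6 and 47.4 CPM against 2.11 and 3.62. In the list for homing and adhesion, 3 of 11 were higher and 0 lower. Itga4, an integrin chain, was at 251 and 338 CPM against 76.8 and 82.6, and Epcam, an adhesion protein, at 162 and 197 CPM against 11.7 and 21.9. Interferon response genes were higher in 16 of 21 and lower in 0, with medians of 2.00 and 1.67, and in 13 of 21 under TMM scaling. Bst2 was at 434 and 375 CPM against 102 and 113.

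The list of the TCR complex, coreceptors and proximal kinases had 3 higher and 6 lower of 24, with medians of 0.02 and 0.08 that turned to -0.35 and -0.24 under TMM scaling. V(D)J recombination had 0 higher and 2 lower of 12, both of them the chromatin proteins Hmgb1 and Hmgb2. All 24 genes of ribosome biogenesis were within 2-fold in at least 1 library. Of 33 genes of Cdc42, its regulators and its effectors, 3 were higher and 1 lower, or 1 and 5 under TMM scaling, under which the WT median went from 0.08 to -0.29 and the KO median from 0.44 to 0.12. Rhoa, a related GTPase, was the lower one at 228 and 295 CPM against 574 and 599, and Dock10, an exchange factor for Cdc42, was higher at 157 and 155 CPM against 52.3 and 49.4. Immediate early and heat shock genes had 3 higher and 1 lower of 14, or 1 and 2 under TMM scaling.

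Defining markers of the other cells of the thymus were mostly at or near 0, with exceptions. In the macrophage list 7 of 10 genes had 0 UMIs in the cluster, C1qa, C1qb and C1qc among them, but Lyz2, a lysozyme of myeloid cells, was found in 10 WT and 11 KO cells, or 18.5% and 11.1%, against 1.28% and 1.98% of clusters 10 to 12. The summed level of the macrophage list was 67.9 CPM in WT and 52.5 CPM in KO, against 26.6 and 23.7 CPM there. The list for NK and innate lymphoid cells also had 7 of 14 genes at 0, Ncr1, Gzmb and Eomes among them, but summed to 543 and 602 CPM against 280 and 276, mostly Gzma and Nkg7. Nkg7, a protein of cytotoxic granules, was at 189 and 140 CPM against 15.1 and 15.7. The part of such cells in the results was not tested. The summed level of the B cell list was 236 and 242 CPM, and that of the fibroblast and endothelium list 37.7 and 75.7 CPM. The thymic epithelium list summed to 215 and 264 CPM, of which Epcam made up 162 and 197 CPM. The dendritic cell list summed to 598 and 549 CPM, most of it Bst2, with Cd74 at 3 and 0 UMIs. The erythroid list summed to 126 and 2.02 CPM and the granulocyte and mast cell list to 126 and 139 CPM. Gzma, a granzyme of the NK list, was at 309 and 447 CPM, beside 373 and 358 CPM in cluster 11, and 107 of its 443 KO UMIs lay in 1 cell. The lists for DP and single-positive thymocytes had 4 of 12 genes lower and 2 higher, or 5 and 1 under TMM scaling, and 4 of 11 higher and 0 lower. Of 6 sex-linked genes only Xist, at 2203 and 2298 CPM, and Tsix were in the matrix.

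The next comparison set KO beside WT within the cluster. Cells that have not yet expressed Cd4 precede the action of CD4-Cre, and the comparison asks how far the libraries differ in such cells, although 18 of the 153 cells held a Cd4 UMI. The cluster made up 0.883% (0.664 to 1.15) of WT and 1.31% (1.06 to 1.59) of KO cells, a ratio of 1.48 (1.05 to 2.10). Clusters 10 to 12 together made up 8.95% and 7.99%. These shares come from 1 pool of mice each.

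Of 4440 genes for which the cluster held 50 UMIs or more, 44 (0.991%) were at least 2-fold higher in KO and 16 (0.36%) at least 2-fold lower. The median log2 ratio was 0.02, and 4014 genes (90.4%) were within 1.5-fold. Of the 60 genes past 2-fold, 50 had under 100 UMIs. In the lists for DN3, γδ, Notch, cell cycle, TCR complex and Cdc42, none of the genes with 50 UMIs or more was past 2-fold. Only 14 of 39 S phase genes, 8 of 48 genes of G2 and mitosis and 10 of 32 γδ genes had that many. With 0.991% and 0.36% of all genes past 2-fold, 0 in lists of this size says little.

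Khdc1a, of a family of KH-domain genes expressed in eggs (chr1:21349641-21352200, +), differed most among genes with at least 100 UMIs. It had 4 UMIs in 3 of 54 WT cells and 121 UMIs in 49 of 99 KO cells, a log2 ratio of 3.85 (2.62 to 5.92). The same direction was seen in clusters 10 to 12, with 0 UMIs in 547 WT cells, an upper bound of 0.672% of cells, and 47 UMIs in 20 of 605 KO cells. Neighbouring genes of its family are similar, and the counts of Khdc1a are uncertain. Gm45315 had 1 and 82 UMIs, a log2 ratio of 4.88 (2.94 to 10.78), beside 5.16 in clusters 10 to 12.

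In the opposite direction, Ctsl, the cysteine protease cathepsin L that thymic epithelium uses for antigen presentation (chr13:64359337-64370890, -), had 128 UMIs in WT and 67 in KO, or 241 and 67.6 CPM. The log2 ratio was -1.83 (-2.28 to -1.40), compared with -3.43 in clusters 10 to 12. It was found in 41 of 54 and 44 of 99 cells. In WT its level was highest in cluster 13, at 2870 CPM, and the Myl10 cluster ranked 15 of 19 in both libraries, so the gap between the libraries was present where the gene was low as well as in proliferating cells.

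Epsti1, an interferon-induced gene, and mt-Nd3, a subunit of respiratory complex I, were also apart in both sets of cells, with log2 ratios of 1.36 (0.67 to 2.18) and 1.29 (0.92 to 1.69) in the Myl10 cluster and 1.59 and 1.20 in clusters 10 to 12. Olfr1369-ps1, a pseudogene, stood at 0.96 and 1.09. Cmah, an enzyme of sialic acid metabolism, was at 1.07 (0.64 to 1.55) in the Myl10 cluster and 0.09 in clusters 10 to 12, and the difference between these ratios was not tested. Tsix, the antisense partner of Xist, was at 47.2 and 105 CPM, and whether the counting told the strands apart is not given in the sources used here. The other genes of the 10 farthest above were 1700097N02Rik, Gm37534, 1810059H22Rik and Brd9, at 1.20, 1.14, 1.06 and 0.97.

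Below Ctsl came Akr1c13, an aldo-keto reductase with close paralogs, at -1.08 (-1.62 to -0.56), and Ms4a4b, a membrane protein of T cells, at -0.95 (-1.52 to -0.39). Nr2c2ap, Mcm6, Ifitm2, Spop, Magt1, Agfg2 and Tecr followed between -0.87 and -0.70. Mcm6, a subunit of the replicative helicase, went from 141 to 80.8 CPM, beside a log2 ratio of -0.02 in clusters 10 to 12. Each of these 9 genes had between 103 and 181 UMIs in the cluster.

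**Figure D4:**
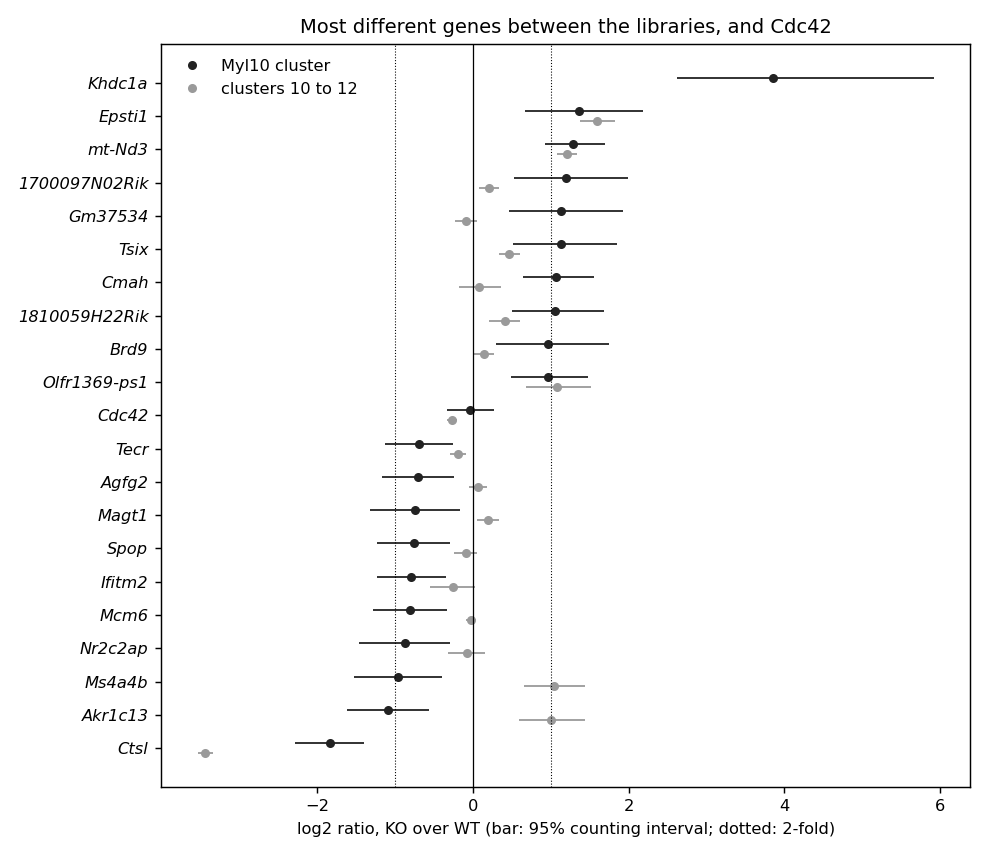
Log2 ratio of KO over WT (x axis) in the Myl10 cluster and in clusters 10 to 12 for the 10 genes of at least 100 UMIs farthest above 0, the 10 farthest below, and Cdc42, with exact 95% counting intervals as bars. Khdc1a, Epsti1, mt-Nd3 and Ctsl are apart in the same direction in both sets of cells (Khdc1a is drawn for the Myl10 cluster alone, since WT had 0 UMIs in clusters 10 to 12), whereas Cdc42 is at -0.04 in the Myl10 cluster.

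Among Notch pathway genes the KO values were mostly the higher, by less than 2-fold. Of 16 genes with at least 50 UMIs, 14 were above 0, compared with 52.6% of all genes tested, and their median log2 ratio was 0.43, or 0.25 for the same genes in clusters 10 to 12. Dtx1 was at 0.65 (0.03 to 1.34), Hes1 at 0.63 (0.33 to 0.94), Notch3 at 0.62 (0.17 to 1.11), Il2ra at 0.57 (0.37 to 0.77) and Ptcra at 0.46 (0.20 to 0.74). Maml3 at -0.56 (-1.18 to 0.08) and Lfng at -0.21 were on the other side. Hes1 and Il2ra were at 1.70 and 1.28 in clusters 10 to 12, from a minority of the cells. There Hes1 was found in 5.12% of WT and 9.92% of KO cells, and Il2ra in 5.67% and 10.4%. The part of these shares in the ratios was not tested. Whether the higher KO values arise from the genotype, from the pooled animals or from the makeup of the clusters cannot be told apart with 1 library each.

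**Figure D5:**
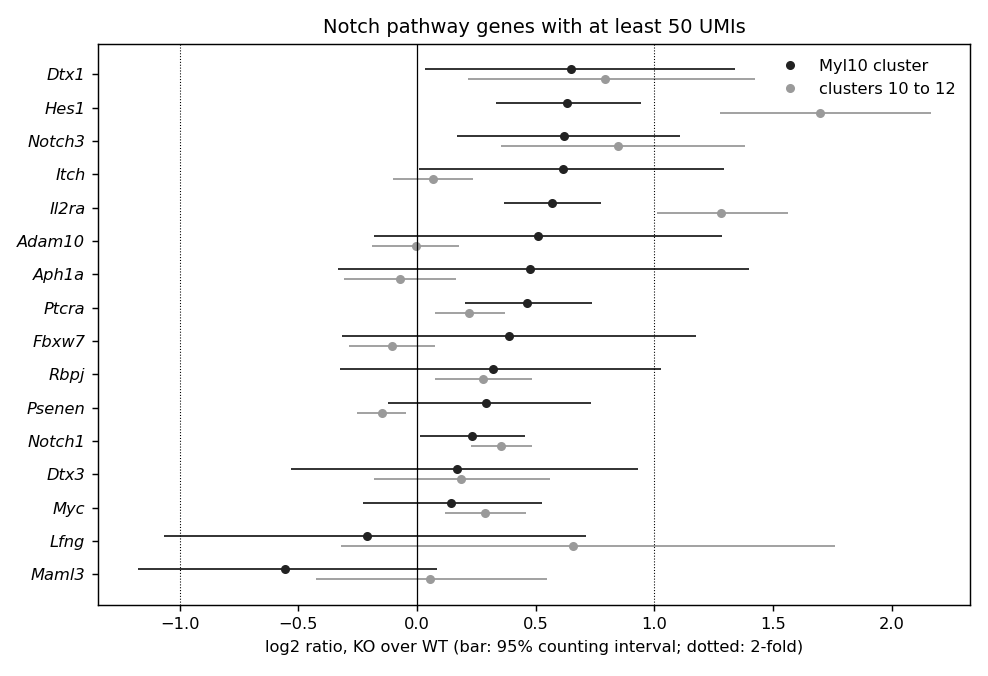
Log2 ratio of KO over WT (x axis) for the 16 Notch pathway genes with at least 50 UMIs in the Myl10 cluster, with clusters 10 to 12 beside them and exact 95% counting intervals as bars. Of the 16 genes 14 lie above 0 in the Myl10 cluster, where no point reaches the dotted 2-fold lines. Hes1 and Il2ra pass the upper line in clusters 10 to 12, where a minority of cells held them.

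The homing list was as far above 0, with 6 of 7 genes above and a median of 0.43. The DN3 list had 13 of 18 genes above 0 with a median of 0.15, the γδ list 3 of 10 with a median of -0.14, and the Cdc42 list 16 of 25 with a median of 0.13. Myl10 was lower in KO, at -0.43 (-0.55 to -0.30), although it was 0.35 in clusters 10 to 12. Il7r was at 0.85 (0.42 to 1.32), and the IL-7 list had 8 of 11 above 0 with a median of 0.23. The DP list had 7 of 9 above 0 with a median of 0.30, and the T-lineage factors 16 of 20 with a median of 0.17. Ribosome biogenesis had 7 of 22 above 0 with a median of -0.08, compared with 21 of the same 22 genes above 0 in clusters 10 to 12. Over all 4440 genes, 2337 were above 0 in the Myl10 cluster and 2641 in clusters 10 to 12. The interferon list had 11 of 15 above 0 with a median of 0.09, compared with 0.44 in clusters 10 to 12.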

How the data were processed

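Thymocytes of 5 pooled mice per genotype were profiled with a 10x Chromium 3′ kit, 1 library each. Per the submitters' processing notes, reads were processed with Cell Ranger 3.0.2, STAR and Seurat on mm10, and the annotation is not given in the sources used here. The authors deposited raw UMI counts per gene (20282 genes) and cell, and a table of cluster numbers. Its mitochondrial percent column reads 0 throughout, so percentages were computed from the counts.

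UMIs were summed by cluster and library, divided by the total, and compared as log2 ratios after 0.5 was added to each sum. A few genes of the lists enter the counts but are not reported here by name. No test was made between single libraries, and past 2-fold stands in for a call. Intervals are Clopper-Pearson for shares, Poisson for levels and conditional binomial for ratios. The steps were tested on simulated data. Genes were named as the 5 markers, the fixed lists, the 15 farthest above and below clusters 10 to 12, and the 10 farthest apart between libraries with at least 100 UMIs. Genes named outside this rule (Gm45315, Mirt1 and those of the single WT cell) were chosen after their values were seen, and the cells and lists with earlier results of these data known. Scrublet in scanpy 1.11.5 marked 2 WT and 0 KO cells as doublets, so its calls were not used. As an alternative, the 367 WT and 454 KO cells of highest score were left out. Of these, 1 WT and 9 KO cells were in the Myl10 cluster. Alternatives included edgeR 4.0.16 TMM and DESeq2 1.42.0 size factors. Python 3.11.15, SciPy 1.17.1 and R 4.3.3 were used, with GENCODE positions on GRCm38.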

Additional observations from a re-analysis of the deposited data

Results flagged for a closer look

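Of 231 named genes with at least 50 UMIs in the Myl10 cluster, 5 had KO over WT ratios on opposite sides of 0 there and in clusters 10 to 12, with both counting intervals leaving out 0 and the ratios at least 2-fold apart. The difference itself was not tested. Cpa3 was at a log2 ratio of 0.83 in the Myl10 cluster (41 and 137 UMIs) and at -1.78 in clusters 10 to 12. In the latter it was found in only 14 of 547 WT and 19 of 605 KO cells, with 36 UMIs in 1 WT cell. H19 was at -0.49 (85 and 113 UMIs) and 1.73. Ifi27l2a, an interferon-induced gene, was at -0.95 (28 and 27 UMIs) and 1.61. Ms4a4b was at -0.95 (56 and 54 UMIs) and 1.04, and Akr1c13 at -1.08 (67 and 59 UMIs) and 1.00. H19, Cpa3 and Ifi27l2a were each found in a minority of the cells, and 29 of the 137 Cpa3 UMIs lay in 1 KO cell.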

How the results depend on the processing

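No paired analysis was possible because each genotype was 1 library. The ratio of the shares, 1.48, ran from 1.37 to 1.51 over the alternatives. The genes higher than clusters 10 to 12 went from 1506 to 879 under TMM scaling, 962 under DESeq2 size factors and 909 against cluster 11 alone, and the lower ones from 939 to 1416 under TMM; both scalings moved the median of all genes below 0, to -0.17 and -0.14 for TMM and -0.11 and -0.09 for DESeq2. The 44 genes higher and 16 lower in KO became 232 and 131 at a minimum of 20 UMIs, where more low counts enter, and 8 and 2 at 100 UMIs, and 68 were higher as a mean over cells. Of the values of single named genes, 23 moved beyond their counting interval and 607 did not. Of those with 1 sign in the reported value, it changed only for Cdc42, KO over WT, which was 0.06 as a mean over cells, and for Trgc2, KO over WT, which was 0.02 without the cells of highest Scrublet score, both near 0 throughout. Trdc over clusters 10 to 12 was on both sides of 0 in the libraries, above 0 in both without ribosomal and mitochondrial genes (0.13 or more) and below 0 in both under TMM (-0.17 or less) and DESeq2 factors (-0.11 or less). The gene lists without the 5 markers were counted after seeing the data. The median of the Notch genes, KO over WT, stayed between 0.35 and 0.57. Leaving out the WT cell with the Mpo UMIs was chosen after seeing the data. No replicate could be left out. Fewer than 100 UMIs lay behind most genes past 2-fold, and depth limits those values.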

Other observations

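Among genes with under 100 UMIs, Gm45315 with 1 and 82 UMIs and Mirt1 with 6 and 57 UMIs were far apart between WT and KO in the Myl10 cluster, with log2 ratios of 4.88 and 2.24, beside 5.16 and 0.29 in clusters 10 to 12. Hbb-bt had 57 WT UMIs, all in 1 cell, and 0 in KO.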
